A study of Mus musculus with 6 samples.

Results

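The genes described here code for the proteins that bring long-chain fatty acids into the muscle fibre, activate them, carry them into mitochondria and oxidise them, together with the peroxisomal branch and the enzymes that release acyl groups from coenzyme A. The 40 genes were chosen by symbol, as members of these steps, and all 40 were found among the 51911 genes of the count table and all 40 passed the filter on low counts. The data are bulk RNA sequencing of gastrocnemius, a calf muscle of mostly fast fibres, from male mice. There were 3 libraries from HSA-PGC-1a3 transgenic mice (genotype alpha3_tg) and 3 from wild-type mice, and no other treatment or allele is given. The transgene carries PGC-1alpha3, an isoform of the coactivator PGC-1alpha, driven by HSA, the promoter of human skeletal actin, which works in muscle fibres. Age, transgenic line and the number of animals behind each library are not given in the sources used here, so the p-values measure the spread between these libraries.

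A fatty acid that enters a fibre is joined to coenzyme A by an acyl-CoA synthetase. Carnitine palmitoyltransferase 1 (CPT1) on the outer mitochondrial membrane passes the acyl group to carnitine, a carrier takes it across the inner membrane and CPT2 returns it to coenzyme A inside. Malonyl-CoA blocks CPT1, so the enzymes that make and break malonyl-CoA set how much fat is admitted, and a repeating cycle of dehydrogenation, hydration, oxidation and thiolysis then shortens the chain. Many of these genes are known targets of PPAR and ERR nuclear receptors, which PGC-1alpha coactivates in muscle.

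Total counts were 26190221 to 32593108 in the transgenic and 25532146 to 40846872 in the wild-type libraries. Ppargc1a, the gene of the transgene, had 73513 to 120862 counts in the transgenic and 1179 to 1809 in the wild-type libraries, so each library matched its label; counts per gene do not separate the isoforms. Fast-fibre markers were abundant in either genotype, and all 8 fell (summed level 64240 to 68680 against 138500 to 146400 CPM, the count relative to the scaled library total). The 8 slow-fibre markers had 0 calls and a summed level of 1494, 2872 and 1285 CPM in transgenic replicates 1, 2 and 3 against 911, 1981 and 770 CPM in wild-type replicates 1, 2 and 3, highest in replicate 2 of either genotype. The markers did not move together: 6 had positive and 2 negative log2 fold changes. The negative ones were Myl3 (-1.26, SE 0.54, without overlap between genotypes) and Myl2 (-0.02, SE 0.36). Of the positive ones, Atp2a2 (1.16, SE 0.44) was also without overlap. With library totals alone 2 of the 8 passed as higher, Atp2a2 among them. The adipocyte markers had 0 calls of 7 tested and summed to 33.4 to 70.1 CPM in transgenic and 42.2 to 193 CPM in wild-type libraries, with wild-type replicate 1 the highest. All 8 endothelial markers fell (summed level 350 to 370 against 438 to 464 CPM), and none of the 8 passed with library totals alone. Of 8 macrophage markers 2 rose (Cd68 and Lgals3), against 25.5% of all tested genes. Another 5 of the 8 had negative log2 fold changes and did not pass. Of 5 liver markers 1 (Cyp2e1) was tested and did not pass. Alb had 23 counts in wild-type replicate 1 and 0 to 5 in each other library, and the other 3 liver markers were at or near 0. The part of these cell populations in the results below was not tested, and in bulk tissue fewer cells of a type cannot be told apart from less RNA per cell.

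The fatty acid genes split about evenly into members that rose and members that fell, and 4 of the 10 steps (uptake, carnitine shuttle, malonyl-CoA control and acyl-CoA dehydrogenases) held both. Of 40 members, 10 rose and 9 fell in the transgenic muscle (quasi-likelihood F test of edgeR with TMM scaling; calls are at an adjusted p under 0.05, by Benjamini-Hochberg over 16593 tested genes). That is 47.5% of the members against 50.7% of all tested genes, with 25.5% of all genes called higher and 25.2% lower. With TMM scaling the share of members called was thus near the background. The median log2 fold change (transgenic over wild type) was -0.047 for the members and -0.016 for all genes. Only 5 members (Acacb, Cpt1b, Slc27a1, Fabp3 and Acad10) passed with a change of at least 1.5-fold, against 24.0% of all genes, and Crat lay just under that size. For 21 members no transgenic CPM lay within the wild-type range or the reverse, as for 59.6% of all genes.

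The direction of the smaller changes depended on the scaling. TMM, which scales libraries so that most genes centre on no change, gave factors of 1.15 in the transgenic and 0.851 to 0.885 in the wild-type libraries. With library totals alone the median of all genes moved from -0.016 to 0.380 on the log2 scale, and that of the members from -0.047 to 0.350. Then 35 of the 40 members were called, a larger share than the 61.0% of all genes. Of the 40 members 31 were higher and 4 lower, against 52.3% and 8.73% of all genes. Slc27a1, Cpt1b, Crat and Acacb were the 4 that fell under either scaling. All 10 members that rose with TMM also rose with library totals. So did every one of the 4230 genes called higher with TMM, so nothing about the members is read from that. Acsl1, Acad11, Echs1, Hadh and Eci2 fell with TMM and had positive fold changes with library totals, so their direction is given relative to TMM.

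**Figure D1:**
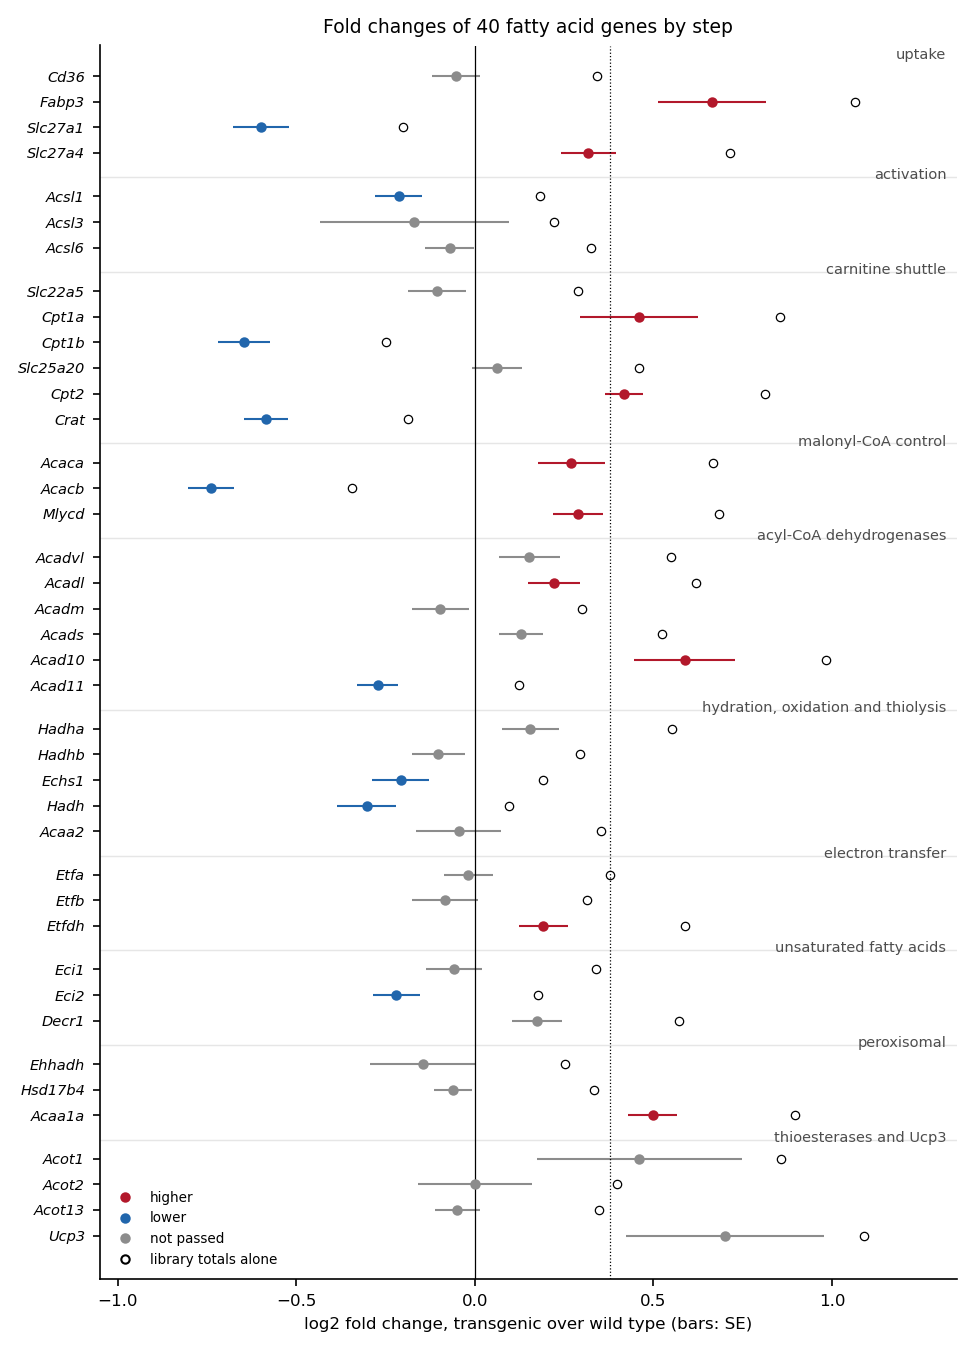
Log2 fold changes (x axis, transgenic over wild type) of the 40 members, 1 per row, grouped by step. Filled points with SE bars use TMM scaling and are red where the gene rose, blue where it fell and grey where it did not pass; open circles use library totals alone, with the dotted line at the median of all genes there (0.380). Slc27a1, Cpt1b, Crat and Acacb lie below 0 in either scaling.

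Among the uptake genes, the transporters moved in opposite directions. Fabp3, the fatty acid binding protein of heart and skeletal muscle cytosol (chromosome 4, 130308595 to 130315463, GRCm38), had 300, 287 and 229 CPM in the transgenic and 152, 205 and 157 CPM in the wild-type libraries. Every transgenic library lay above every wild-type library, and the gene rose 1.59-fold (log2 fold change 0.66, SE 0.15, adjusted p = 0.0109 by edgeR). Within the wild type its highest value was in replicate 2, the library with the highest slow-fibre markers, while in the transgenic muscle replicate 1 was highest. Fabp3 has a processed pseudogene, Fabp3-ps1, alike over 48.9% of its transcript, so part of its fragments may not be counted uniquely.

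Slc27a1, which codes for the fatty acid transport protein FATP1 of muscle and fat (chromosome 8, 71568882 to 71587302), had 93.4, 87.9 and 93.0 CPM in the transgenic and 123, 155 and 137 CPM in the wild-type libraries. The groups did not overlap, and the gene fell 1.51-fold (log2 fold change -0.60, SE 0.08, adjusted p = 9.01e-05). Slc27a4, the related transporter FATP4 (chromosome 2, 29802634 to 29817522), was lower per kilobase of exon (2.81 ± 0.0550 CPM in wild type, against 23.7 ± 2.72 CPM for Slc27a1; SD, n = 3) and rose, with 15.3, 15.0 and 16.02 CPM against 12.1, 12.4 and 12.6 CPM (log2 fold change 0.32, SE 0.08, adjusted p = 0.00472). Counted within each library, which needs no scaling between libraries, the ratio of Slc27a4 to Slc27a1 was 0.164, 0.171 and 0.172 in the transgenic and 0.0984, 0.0803 and 0.0924 in the wild-type libraries. Those ratios did not overlap (1.88-fold higher in transgenic muscle; exact two-sided permutation p = 0.1, the smallest that 3 libraries against 3 allow). Cd36, the membrane fatty acid translocase also present in capillary endothelium and fat, had 345, 387 and 344 CPM against 384, 379 and 354 CPM. Its groups overlapped and it did not pass (log2 fold change -0.05, SE 0.07, adjusted p = 0.543).

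Of the acyl-CoA synthetases, Acsl1, the main long-chain form of muscle and fat, had 381, 343 and 384 CPM in the transgenic and 406, 439 and 439 CPM in the wild-type libraries. It fell 1.16-fold with TMM (log2 fold change -0.21, SE 0.07, adjusted p = 0.0191), and the call ended without transgenic replicate 2 or wild-type replicate 3 and turned to a higher call with library totals (0.18, adjusted p = 0.0238). Acsl6, a synthetase known best from brain, did not pass (log2 fold change -0.07, SE 0.07, adjusted p = 0.423). Acsl3, a form of the endoplasmic reticulum and lipid droplets, spread widely in the wild type, with 53.1, 27.5 and 33.6 CPM against 32.7, 36.6 and 32.0 CPM. Its high wild-type value was in replicate 1, the library with the most adipocyte marker counts, and its fold change went from -0.17 to 0.14 without that library, passing in neither case.

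In the carnitine shuttle the muscle form of the outer transferase fell and the inner transferase rose. Cpt1b, the muscle form of CPT1 (chromosome 15, 89416405 to 89425863), had 273, 264 and 247 CPM in the transgenic and 370, 435 and 422 CPM in the wild-type libraries. The lowest wild-type library stood well above the highest transgenic one, and the gene fell 1.56-fold (log2 fold change -0.65, SE 0.07, adjusted p = 2.61e-05). Its exons share 2744 bases with the overlapping gene Gm44502 on the same strand, which is not among the counted genes. Fragments from the shared bases cannot be told apart.

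Cpt1a, the liver form of CPT1 that muscle expresses at a low level (chromosome 19, 3322334 to 3385733), had 19.4, 15.6 and 20.8 CPM against 16.5, 10.8 and 13.5 CPM. The groups overlapped, and the gene passed narrowly as higher (log2 fold change 0.46, SE 0.16, adjusted p = 0.0473), a call that ended without transgenic replicate 1 or 3 or wild-type replicate 2 or 3 (0.30 to 0.61 over all 6 single removals). It also missed the threshold with DESeq2 size factors in edgeR (adjusted p = 0.0503) and with upper-quartile factors (adjusted p = 0.0586). Per kilobase of exon, Cpt1a averaged 2.43 ± 0.348 CPM and Cpt1b 77.6 ± 3.83 CPM in the transgenic libraries, and 1.78 ± 0.374 and 121 ± 10.1 CPM in wild-type muscle (SD, n = 3). Cpt1b was thus the more abundant CPT1 transcript in either genotype. The count ratio of Cpt1a to Cpt1b was 0.0711, 0.0592 and 0.0840 in the transgenic and 0.0446, 0.0249 and 0.0322 in the wild-type libraries, without overlap (exact permutation p = 0.1, the smallest possible).

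Cpt2, the inner membrane transferase that reforms acyl-CoA (chromosome 4, 107903981 to 107923610), rose with little spread. It had 110, 110 and 104 CPM in the transgenic and 78.6, 83.2 and 80.0 CPM in the wild-type libraries (log2 fold change 0.42, SE 0.05, adjusted p = 7.58e-05). The count ratio of Cpt2 to Cpt1b was 0.402, 0.415 and 0.419 against 0.212, 0.191 and 0.190, 2.09-fold higher in transgenic muscle with no overlap (exact permutation p = 0.1). The carrier between them, Slc25a20 (carnitine-acylcarnitine translocase), had 84.3 to 93.2 CPM in the transgenic and 77.9 to 92.2 CPM in the wild-type libraries and did not pass (log2 fold change 0.06, SE 0.07, adjusted p = 0.481).

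Crat, carnitine acetyltransferase, which buffers acetyl-CoA by exporting acetyl groups as acetylcarnitine (chromosome 2, 30400471 to 30415813), had 413, 422 and 396 CPM in the transgenic and 587, 643 and 615 CPM in the wild-type libraries. The groups were far apart relative to their spread, and it fell 1.499-fold (log2 fold change -0.58, SE 0.06, adjusted p = 1.78e-05). Slc22a5, the plasma membrane carnitine transporter OCTN2, had 11.2 to 11.3 CPM against 11.5 to 12.6 CPM and did not pass (log2 fold change -0.11, SE 0.08, adjusted p = 0.298); 41.6% of its transcript is nearly identical to Slc22a21.

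All 3 genes that set malonyl-CoA passed, against 50.7% of all tested genes, though the Acaca call was not stable. The largest fall of the 40 was in this step. Acacb, acetyl-CoA carboxylase 2, the form at the mitochondrial surface whose malonyl-CoA restrains CPT1 (chromosome 5, 114146535 to 114250761), had 300, 305 and 294 CPM in the transgenic and 477, 486 and 538 CPM in the wild-type libraries. It fell 1.67-fold (log2 fold change -0.74, SE 0.06, adjusted p = 4.10e-06), and the groups did not overlap. Mlycd, malonyl-CoA decarboxylase, which removes malonyl-CoA (chromosome 8, 119394878 to 119411102), had 142, 130 and 149 CPM against 109, 124 and 111 CPM and rose (log2 fold change 0.29, SE 0.07, adjusted p = 0.00512).

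Acaca, acetyl-CoA carboxylase 1, the cytosolic form that feeds fatty acid synthesis (chromosome 11, 84129672 to 84401651), had 13.0, 13.2 and 11.0 CPM in the transgenic and 10.3, 10.2 and 10.3 CPM in the wild-type libraries. It passed as higher (log2 fold change 0.27, SE 0.09, adjusted p = 0.0324), with transgenic replicate 3 close to the wild type, and the call was lost in 5 of the 6 single-library removals (every one but transgenic replicate 3; 0.25 to 0.36) and with the DESeq2 Wald test. A processed pseudogene, Gm5182, is alike over 64.3% of its transcript. The count ratio of Acacb to Acaca was 23.2, 23.1 and 26.6 in the transgenic and 46.2, 47.6 and 52.2 in the wild-type libraries, and that of Mlycd to Acacb was 0.472, 0.426 and 0.508 against 0.229, 0.256 and 0.206. In transgenic muscle the first was 2.004-fold lower and the second 2.04-fold higher, with no overlap and exact permutation p = 0.1 for each.

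The 14 pairs of members compared as ratios within libraries were chosen by family or role, with earlier results of these data known. Of these pairs 9 did not overlap between genotypes, 4 with a higher and 5 with a lower ratio in the transgenic libraries. In Slc27a4 to Slc27a1, Cpt2 to Cpt1b, Acacb to Acaca, Mlycd to Acacb and Acad11 to Acad10, each gene alone was without overlap. The genes of each such pair moved in opposite directions, so the ratio could not overlap and is no separate test. Among single genes 59.6% did not overlap, and the share over other pairs of genes was not computed, so nothing is read from the count. The exact permutation p was 0.1 for each of the 9, and adjusted over the 14 pairs (Benjamini-Hochberg) it was 0.156, so no pair could pass in this design. The 5 pairs that overlapped were Acsl3 to Acsl1, Acsl6 to Acsl1, Etfb to Etfa, Ehhadh to Hsd17b4 and Acadl to Acadvl (exact permutation p = 0.3 to 0.8).

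**Figure D2:**
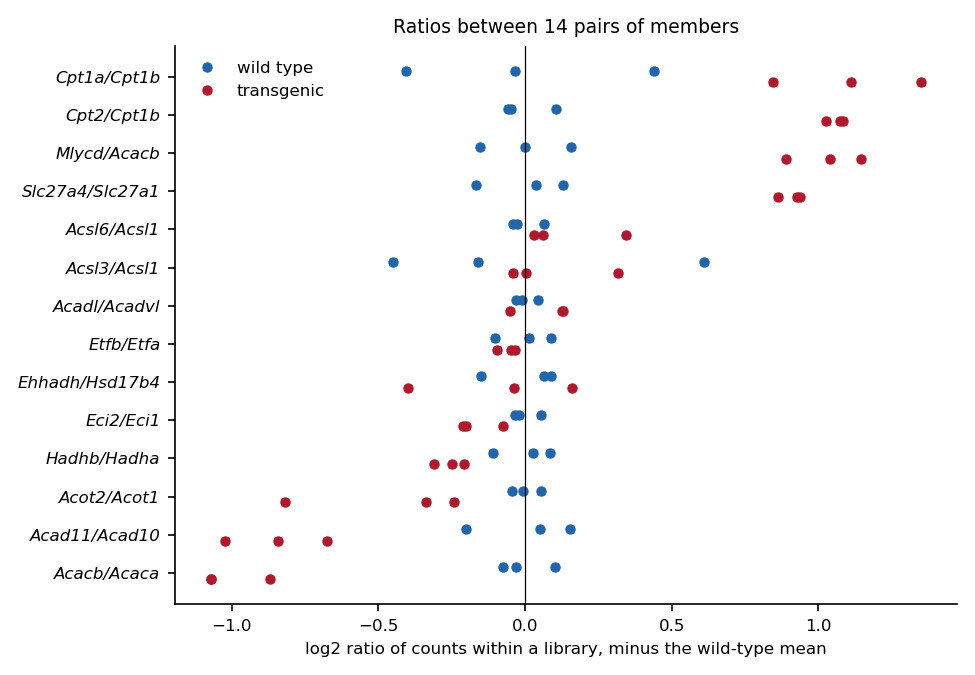
Log2 ratio of the counts of 2 members within each library, minus the mean of the wild-type libraries (x axis), for 14 pairs (rows); red points are the 3 transgenic and blue points the 3 wild-type libraries. Cpt1a/Cpt1b, Cpt2/Cpt1b, Mlycd/Acacb and Slc27a4/Slc27a1 lie to the right in every transgenic library and Acacb/Acaca and Acad11/Acad10 to the left.

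The start-site regions of 4 members are shown, from RefSeq on GRCm38.p6, each 250 bases before to 50 after an annotated start. Acacb (chr5:114165268-114165567, plus strand, an internal RefSeq start of the gene) had the largest fall and Cpt2 (chr4:107923540-107923839, minus strand) the smallest p among the members that rose. Hadha (chr5:30154931-30155230, minus strand) is divergent from Hadhb, and Acsl6 (chr11:54303574-54303873, plus strand) alone among the members held a searched motif, given in capitals.
Acacb: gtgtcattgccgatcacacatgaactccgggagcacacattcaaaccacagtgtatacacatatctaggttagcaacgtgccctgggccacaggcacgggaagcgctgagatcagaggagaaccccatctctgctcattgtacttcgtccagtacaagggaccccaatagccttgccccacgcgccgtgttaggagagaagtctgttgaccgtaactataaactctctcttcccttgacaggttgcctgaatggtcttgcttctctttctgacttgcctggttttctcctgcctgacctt
Cpt2: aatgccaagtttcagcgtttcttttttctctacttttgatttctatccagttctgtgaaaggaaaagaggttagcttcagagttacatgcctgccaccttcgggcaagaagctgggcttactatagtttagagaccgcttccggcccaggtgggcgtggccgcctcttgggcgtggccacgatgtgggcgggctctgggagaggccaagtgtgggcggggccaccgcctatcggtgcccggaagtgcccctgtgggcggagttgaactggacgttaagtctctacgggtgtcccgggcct
Hadha: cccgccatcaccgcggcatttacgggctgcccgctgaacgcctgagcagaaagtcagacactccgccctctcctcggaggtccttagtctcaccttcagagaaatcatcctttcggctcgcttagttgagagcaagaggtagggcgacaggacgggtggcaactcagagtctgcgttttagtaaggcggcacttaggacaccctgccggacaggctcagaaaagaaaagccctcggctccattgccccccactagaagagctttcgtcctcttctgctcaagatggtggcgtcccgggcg
Acsl6: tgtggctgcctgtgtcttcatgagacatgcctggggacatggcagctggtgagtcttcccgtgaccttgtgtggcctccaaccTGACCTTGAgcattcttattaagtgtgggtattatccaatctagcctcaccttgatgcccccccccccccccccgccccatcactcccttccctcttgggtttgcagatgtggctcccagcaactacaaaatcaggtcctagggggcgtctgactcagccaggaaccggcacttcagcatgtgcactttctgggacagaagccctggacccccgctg
The motifs searched on both strands were TNAAGGTCA, the extended site bound by ERR receptors, and the direct repeat bound by PPAR with RXR, which is AGGTCA, any 1 base, then AGGTCA again and so shares its 6-letter unit with the first. Of the 40 members, 34 had a region in the table. The first motif was in 1 of 39 regions of these 34 genes, against 421 of 32851 regions of all genes (1.28%), and the second in 0 of 39, against 13 of 32851 (0.0396%). The Acsl6 match lay 167 bases before the start, on the minus strand, and Acsl6 itself did not pass. These are descriptions of letters in short windows, and nothing follows from them about binding.

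The acyl-CoA dehydrogenases open each turn of the cycle, each with its own chain length. Acadl, the long-chain form (chromosome 1, 66830839 to 66863277), had 399, 373 and 366 CPM in the transgenic and 295, 351 and 329 CPM in the wild-type libraries, and rose (log2 fold change 0.22, SE 0.07, adjusted p = 0.0242). That call ended without wild-type replicate 1 or 3 (0.15 to 0.27 over all removals). Acadvl, the very-long-chain form, overlapped between genotypes (415 to 481 against 356 to 440 CPM) and did not pass (0.15, SE 0.09, adjusted p = 0.165); 1151 of its 2686 exonic bases are shared with Dvl2 on the opposite strand, and counting ignored strand. Neither the medium-chain Acadm (-0.10, SE 0.08, adjusted p = 0.339) nor the short-chain Acads (0.13, SE 0.06, adjusted p = 0.107) passed.

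Acad10 and Acad11, related dehydrogenases outside the main spiral, diverged. Acad10 (chromosome 5, 121621026 to 121660514) was scarce, with 6.12, 5.60 and 4.74 CPM in the transgenic and 3.94, 3.37 and 3.65 CPM in the wild-type libraries, and rose 1.502-fold (log2 fold change 0.59, SE 0.14, adjusted p = 0.00521). Near-identical Acad12 covers 47.5% of its transcript, so the value is uncertain. Acad11 (chromosome 9, 104063377 to 104127725) had 60.9, 63.2 and 60.2 CPM against 69.6, 76.1 and 76.9 CPM and fell 1.21-fold (log2 fold change -0.27, SE 0.06, adjusted p = 0.00248), with no overlap. The count ratio of Acad11 to Acad10 was 9.94, 11.3 and 12.7 in the transgenic and 17.6, 22.5 and 20.9 in the wild-type libraries (exact permutation p = 0.1).

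Of the later steps of the spiral, 2 of 5 genes passed, as lower, against 25.2% of all tested genes called lower. Hadha, the alpha subunit of the mitochondrial trifunctional protein (572, 567 and 500 CPM against 443, 522 and 507 CPM), did not pass (log2 fold change 0.16, SE 0.08, adjusted p = 0.127). Hadhb, its beta subunit, had 52.2, 55.6 and 47.8 CPM against 53.3, 60.3 and 53.2 CPM and did not pass either (-0.10, SE 0.07, adjusted p = 0.275). The genes are divergent neighbours on chromosome 5, with RefSeq starts 273 bases apart. The count ratio of Hadhb to Hadha was 0.0914, 0.0981 and 0.0955 in the transgenic and 0.1204, 0.115 and 0.105 in the wild-type libraries, without overlap (exact permutation p = 0.1). Hadhb has a processed pseudogene, Gm13910, alike over 69.7% of its transcript at up to 99.8% identity, and another near-identical copy, Gm9108, alike over 69.6%; multi-mapped fragments were not counted, so its level may be understated.

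Hadh, the short-chain hydroxyacyl-CoA dehydrogenase of the third step (chromosome 3, 131233419 to 131272101), had 173, 172 and 152 CPM in the transgenic and 179, 221 and 212 CPM in the wild-type libraries and fell 1.23-fold (log2 fold change -0.30, SE 0.08, adjusted p = 0.0114). Echs1, the short-chain enoyl-CoA hydratase of the second step, had 93.2, 96.2 and 91.8 CPM against 97.4, 123 and 104 CPM and fell at the edge of the threshold (log2 fold change -0.21, SE 0.08, adjusted p = 0.0495), a call lost in every single-library removal but that of wild-type replicate 1 (-0.29 to -0.11). The Echs1 call also ended with limma-voom, with at least 10 counts in every library and without robust estimation (adjusted p = 0.0550, 0.0629 and 0.0603), and library totals alone called it higher (0.19, adjusted p = 0.0353). Acaa2, a mitochondrial thiolase of the closing step, overlapped (158 to 187 against 150 to 208 CPM) and did not pass (-0.05, SE 0.12, adjusted p = 0.778).

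Electrons from the dehydrogenases pass through ETF to ETF-ubiquinone oxidoreductase. The ETF subunit genes Etfa (-0.02, SE 0.07, adjusted p = 0.844) and Etfb (-0.08, SE 0.09, adjusted p = 0.477) did not pass, and Etfdh, the oxidoreductase, passed as higher at 217, 224 and 199 CPM against 171, 200 and 189 CPM (log2 fold change 0.19, SE 0.07, adjusted p = 0.0382). Its groups overlapped, and the call ended without replicate 1 or 3 of the wild type or replicate 2 of the transgenic muscle (0.13 to 0.25). Of the Etfb exons, 617 of 1164 bases are shared with Gm45233.

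Of the enzymes for double bonds, Eci2, an enoyl-CoA isomerase of mitochondria and peroxisomes, had 51.0, 49.6 and 51.0 CPM against 54.1, 63.2 and 59.0 CPM and fell 1.16-fold (-0.22, SE 0.06, adjusted p = 0.0154), which did not pass without replicate 2 of either genotype or with no filter on low counts and was called higher with library totals alone (0.18, adjusted p = 0.0202). The mitochondrial isomerase Eci1 did not pass (-0.06, SE 0.08, adjusted p = 0.565). Decr1, the dienoyl-CoA reductase, lay just outside the threshold (0.17, SE 0.07, adjusted p = 0.0573) and passed as higher under 8 of 16 other settings.

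Among the peroxisomal members, Acaa1a, a thiolase of the peroxisomal spiral (chromosome 9, 119339676 to 119350299), rose 1.41-fold, from 36.1, 41.0 and 36.5 CPM in the wild-type to 50.4, 54.9 and 55.4 CPM in the transgenic libraries (log2 fold change 0.50, SE 0.07, adjusted p = 1.24e-04). Its near-identical copy Acaa1b, alike over 81.0% of the transcript, had 1 to 13 counts per library, so few unique fragments came from it. The multifunctional enzymes Ehhadh (-0.14, SE 0.15, adjusted p = 0.442) and Hsd17b4 (-0.06, SE 0.05, adjusted p = 0.365), which hydrate and oxidise peroxisomal acyl-CoAs, did not pass.

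Acyl-CoA thioesterases and the mitochondrial carrier Ucp3, which responds to fatty acid supply in muscle, gave 0 calls of 4, against 50.7% of all tested genes. Ucp3 (chromosome 7, 100472990 to 100486432) had 166, 137 and 219 CPM in the transgenic and 130, 77.5 and 114 CPM in the wild-type libraries. Every transgenic library was above every wild-type one, but the spread was wide and it did not pass with TMM (log2 fold change 0.70, SE 0.28, adjusted p = 0.0995). The DESeq2 Wald test, the replicate block and the fit without robust estimation called it higher, as did library totals alone and the removal of both libraries numbered 2. It is 1 of 4 members among the 3614 genes of the authors' deposited table (log2 fold change 0.623, adjusted p = 0.049), beside Slc27a1 (-0.653), Crat (-0.59) and Acacb (-0.736). The smallest absolute log2 fold change in that table was 0.585. Cpt1b, Fabp3 and Acad10, called here with at least 1.5-fold, are not in it. The cytosolic thioesterase Acot1 had 0.733 to 1.04 CPM against 0.563 to 0.720 CPM and the mitochondrial Acot2 13.4 to 21.1 against 15.3 to 17.9 CPM, neither passing (adjusted p = 0.205 and 0.998). They are near-identical to each other over 56.1% and 58.0% of their transcripts, so fragments of either may be lost or assigned uncertainly. Acot13, a small mitochondrial thioesterase, did not pass (-0.05, SE 0.06, adjusted p = 0.549).

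**Figure D3:**
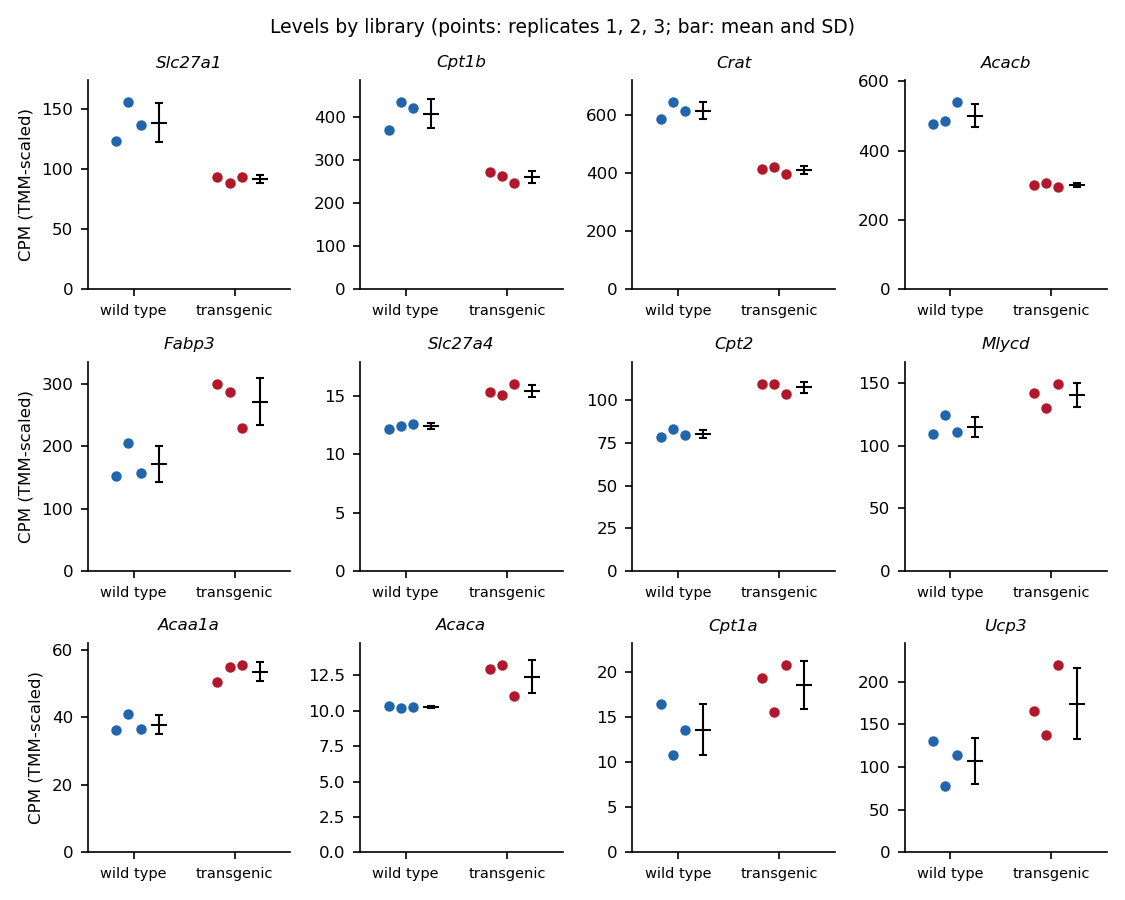
Level (y axis, TMM-scaled CPM from 0) of 12 members in each library; points are replicates 1, 2 and 3 from left to right in wild-type (blue) and transgenic (red) muscle, and the bar is the mean with its SD. In the upper row the 3 transgenic libraries lie below all wild-type libraries for each gene, Fabp3, Slc27a4, Cpt2, Mlycd, Acaa1a, Acaca and Ucp3 lie above, and Cpt1a overlaps.

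Set by abundance per kilobase of exon in wild-type muscle, Fabp3 led at 208 ± 35.4 CPM, followed by Acadl at 162 ± 14.1, Etfb at 151 ± 18.3, Acadvl at 151 ± 16.3, Cpt1b at 121 ± 10.1, Acaa2 at 119 ± 19.0 and Crat at 114 ± 5.24 CPM (SD, n = 3). Neighbours from Acadl to Acadvl and from Cpt1b to Crat lay within their SDs of each other. In transgenic muscle Fabp3 (331 ± 46.0), Acadl (189 ± 8.71) and Acadvl (167 ± 12.4) were the highest, while Cpt1b (77.6 ± 3.83) and Crat (76.2 ± 2.45) came after Acadm (86.8 ± 6.997), with Acadm and Cpt1b within their SDs of each other. The lowest levels in wild type were those of Acot1 (0.166 ± 0.0204), Acaca (0.601 ± 0.00373) and Acad10 (0.602 ± 0.0473). Exon length here is the union over all annotated transcripts, which understates genes with long rare exons.

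Replicates of 1 genotype were close for most members and far apart for a few. The largest ratio of highest to lowest CPM within the transgenic libraries was 1.59 for Ucp3, then 1.58 for Acot2 and 1.503 for Ehhadh, and within the wild type 1.93 for Acsl3, 1.68 for Ucp3 and 1.53 for Cpt1a. Ucp3 and Cpt1a were lowest in replicate 2 of either genotype. Pdk4, a kinase that restrains glucose oxidation and is induced with fatty acid use, shared that order with 1052, 463 and 1260 CPM in the transgenic and 726, 359 and 648 CPM in the wild-type libraries and did not pass (log2 fold change 0.68, SE 0.51, adjusted p = 0.334). Most members had another order: wild-type replicate 2 was the highest wild-type library for 30 of 40 members, and transgenic replicate 2 the highest transgenic library for 22. These are the libraries with the highest slow-fibre markers of each genotype, and the part of fibre type in this order was not tested. Wild-type replicate 2 also had the largest total count (40846872), and the share of all genes highest in each library was not computed. Lowest for most members were wild-type replicate 1 (30 of 40) and transgenic replicate 3 (28 of 40). Without both libraries numbered 2, a removal chosen after seeing the data, 8 members rose, against 21.5% of all genes tested there, and 5 fell (Slc27a1, Cpt1b, Crat, Acacb and Acad11), against 20.9%.

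**Figure D4:**
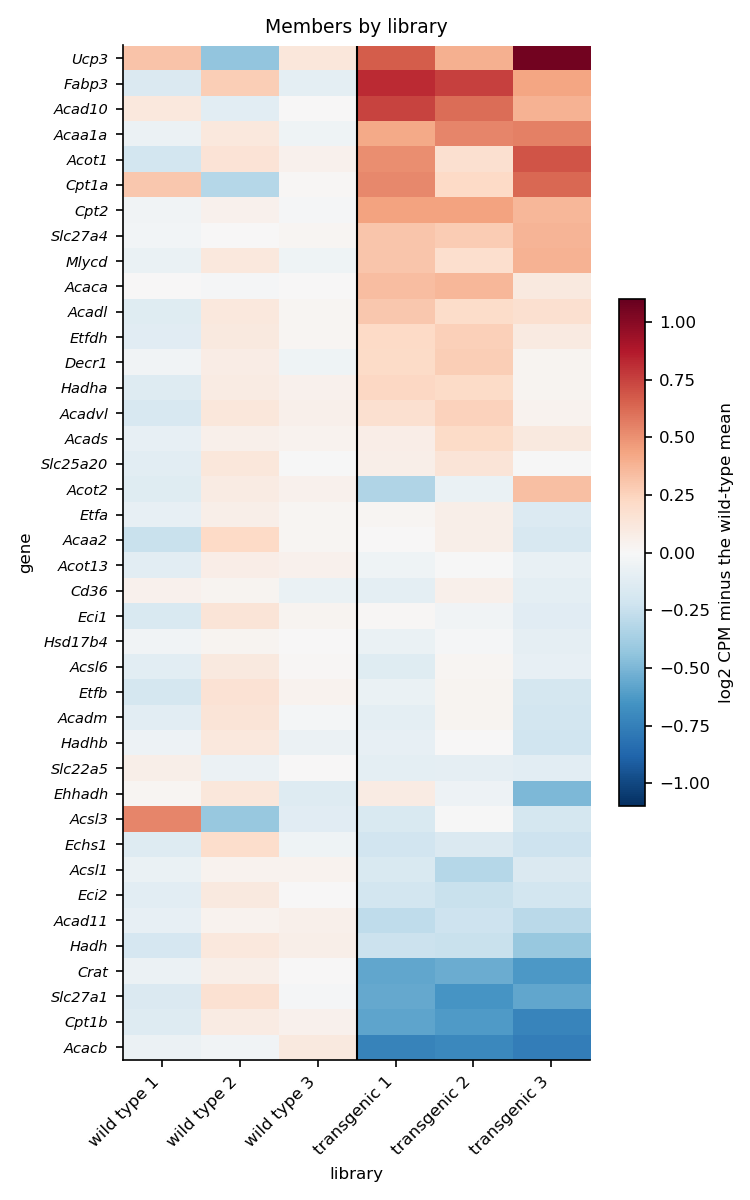
Log2 CPM minus the mean of the wild-type libraries (colour, red above and blue below) for the 40 members (rows, ordered by fold change) in each library (columns). Crat, Slc27a1, Cpt1b and Acacb are blue in all 3 transgenic libraries, and Ucp3, Cpt1a and Acsl3 vary within a genotype.

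Genes of fatty acid handling outside the 40 were described from a separate list of 57, of which 51 were tested. Of these, 18 rose and 14 fell (62.7% called, against 50.7% of all genes, with a median log2 fold change of 0.08). Library totals alone gave 31 higher and 5 lower of the 51, against 52.3% and 8.73% of all genes. Peroxisomal genes of this list moved in opposite directions. Acox3, an oxidase of branched-chain acyl-CoAs, rose by a log2 fold change of 0.48 (SE 0.07). Acox2, a related oxidase, rose from 0.171 ± 0.123 CPM in wild-type to 1.67 ± 0.0973 CPM in transgenic muscle (SD, n = 3), with few counts in the wild type and a fitted log2 fold change of 3.31 (SE 0.39). Abcd2, a transporter of very-long-chain acyl-CoAs into peroxisomes, fell 2.49-fold (log2 fold change -1.32, SE 0.06, adjusted p = 9.65e-08). Crot, the peroxisomal carnitine octanoyltransferase (log2 fold change -0.76, SE 0.06), and Phyh, which starts alpha-oxidation of branched chains (-0.69, SE 0.06), also fell.

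Other genes of this list that rose were Echdc3 (log2 fold change 1.02, SE 0.13), Ech1, a dienoyl-CoA isomerase (0.54, SE 0.08), Dbi, the acyl-CoA binding protein (0.53, SE 0.07), and the thioesterases Acot7 (0.70, SE 0.10) and Acot9 (0.79, SE 0.11). Them4, another thioesterase (-0.82, SE 0.10), and Etfbkmt, a methyltransferase of the ETF beta subunit (-0.84, SE 0.11), fell under either scaling. The adjusted p of the genes named from this list as higher or lower was at most 6.83e-04. Acat1, the thiolase of ketone body use (-0.52, SE 0.08), Nudt7, a peroxisomal coenzyme A hydrolase (-0.49, SE 0.07), and Fabp4, the binding protein of adipocytes and capillary endothelium (-0.50, SE 0.08), fell with TMM and did not pass with library totals alone. Fabp4 fell alongside the 8 endothelial markers, and their part in its change was not tested.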

How the data were processed

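Per the submitters' processing notes, STAR 2.5.0a, featureCounts 2.0.0, DESeq2 and the build GRCm38.p6 were used by the authors. The deposited raw counts are fragments per gene, unstranded, per the file headers; a fragment over several genes counted for each, and multi-mapped fragments were not counted. For 3614 genes the authors' deposited table gives a log2 fold change with its p-value, raw and adjusted. Its smallest absolute log2 fold change is 0.585 and its largest raw p-value 0.0499, so it does not list all genes.

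Here genes were kept with filterByExpr and tested with edgeR 4.0.16 in R 4.3.3 (TMM, robust quasi-likelihood F test, genotype as the sole term, Benjamini-Hochberg, threshold 0.05). SE is the absolute log2 fold change over the square root of F. CPM uses TMM-scaled totals; 3 counts equal 0.0804 to 0.134 CPM, and counting error alone is covered by that limit. Names, positions and exon lengths came from GENCODE M21 (51718 of 51911 IDs matched). Copies were sought with blastn at 95% identity or more over at least 100 bases and 10% of the transcript. Pair ratios added 0.5 counts. Alternatives used DESeq2 1.42.0 and limma 3.58.1, other scalings and filters, a replicate block and removal of single libraries. On simulated counts for 16352 genes, 10 of edgeR's 174 calls were false, and it found 71% of 1.5-fold and 93% of 2-fold changes. Only 200 genes were changed there, equally in either direction, with a spread that followed the trend over abundance. In the data 50.7% of genes were called and some genes spread more widely, so these rates may not hold for them. The members, lists and pairs were chosen with earlier results of these data known. All members were named, with Ppargc1a, up to 8 genes per direction of the other list by smallest p, and marker genes; Pdk4 was named after its values were seen, and 1 gene the rule names is not reported here. No library was a duplicate: the chi-square over its degrees of freedom was 9.92 to 24.0 between libraries of 1 genotype.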

Additional observations from a re-analysis of the deposited data

How the results depend on the processing

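Over 16 other settings, 9 of the 19 called members kept their call and direction in every one (Fabp3, Slc27a1, Slc27a4, Cpt1b, Cpt2, Crat, Acacb, Mlycd and Acaa1a), and 12 kept it whichever single library was left out (those 9 with Acad10, Acad11 and Hadh). With 3 libraries a genotype, the other 7 calls were each lost in at least 1 single-library removal. The same shares over all called genes were not computed, so nothing is read from these counts about the members as a group.

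With library totals alone, 8676 genes were called higher and 1448 lower, with 31 and 4 members and 31 and 5 genes of the other list; the setting shifts every gene by about the same amount. Log2 fold changes that turned positive there were 0.34 for Cd36, 0.18 for Acsl1, 0.22 for Acsl3, 0.33 for Acsl6, 0.29 for Slc22a5, 0.30 for Acadm, 0.12 for Acad11, 0.30 for Hadhb, 0.19 for Echs1, 0.095 for Hadh, 0.35 for Acaa2, 0.38 for Etfa, 0.31 for Etfb, 0.34 for Eci1, 0.18 for Eci2, 0.25 for Ehhadh, 0.33 for Hsd17b4 and 0.35 for Acot13.

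Values near 0 that changed sign elsewhere belonged to genes that did not pass. Etfa was 0.019 with no filter and 0.00061 with at least 10 counts in every library. Acot2 was -0.0036 with upper-quartile factors, -0.017 with limma-voom and -0.020 with the replicate block. Without both libraries numbered 2, Acaa2 was 0.021 and Eci1 0.010. There 5 members were called lower in place of 9, against 20.9% of all genes in place of 25.2%.

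Single-library removals gave 6 to 11 members higher and 6 to 9 lower (6 higher without wild-type replicate 3). Over these removals the fold change ranged from -0.37 to 0.14 for Acsl3, -0.0022 to 0.12 for Slc25a20, -0.17 to 0.067 for Acaa2, -0.071 to 0.055 for Etfa, -0.15 to 0.010 for Eci1, -0.25 to 0.024 for Ehhadh and -0.19 to 0.16 for Acot2. The log2 difference in the Acsl3 to Acsl1 ratio ranged from -0.133 to 0.398 and in the Ehhadh to Hsd17b4 ratio from -0.218 to 0.061. The cause of these shifts was not tested.

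With the replicate block, 12 members were called higher and 9 lower, all 19 main calls among them. Same-numbered libraries did not deviate together (correlations 0.101, -0.088 and -0.210 for numbers 1, 2 and 3), and only the libraries numbered 1 correlated best with their own number, so the numbers were not taken to pair the libraries.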
